A study of Homo sapiens with 40 samples.

Results

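The genes described here are the 3 NR4A receptors, NR4A1, NR4A2 and NR4A3, and the immediate early response genes IER2, IER3 and IER5. They were taken as the rows of the count table whose gene name equals one of these symbols, which gave 6 of 44584 rows. RNA was sequenced from BT474, a HER2-overexpressing breast ductal carcinoma line that is sensitive to the anti-HER2 antibody trastuzumab, and from BT474R, a single clone (clone 5) obtained by keeping BT474 in trastuzumab for several weeks. Cells of both lines were serum starved and collected before treatment (T0), or received EGF at 50 ng/mL, heregulin (HRG) at 10 ng/mL or water (vehicle) in fresh starvation medium and were collected 1 h, 12 h or 24 h later. Each of the 20 groups (2 lines, T0 and 3 treatments at 3 time points) has 2 libraries, 40 in all. BT474R was derived once, so that resistance and any other property of this clone cannot be told apart. Treatments were done in duplicate, but neither the labels nor the study's methods say whether the 2 libraries of a group were independent cultures, so that p-values measure the spread between these samples, which may be technical.

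NR4A receptors are orphan nuclear receptors, and their activity is set largely by how much of them a cell makes. They are immediate early genes: signals through ERK, CREB and calcium switch them on from pre-existing factors without new protein synthesis, and their short-lived mRNA then falls again. IER2, IER3 and IER5 encode small proteins of the same early response. IER2 is a nuclear protein that growth factors induce, and IER3 modulates ERK signaling and cell survival. IER5 binds the phosphatase PP2A and acts on the heat shock factor HSF1. EGF binds EGFR and HRG binds HER3 and HER4, and both receptor classes pair with HER2, which BT474 carries in excess.

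On the primary chromosomes of GRCh38 the GENCODE annotation places NR4A1 at chr12:52022832-52059507 (plus strand), NR4A2 at chr2:156324437-156342348 (minus strand), NR4A3 at chr9:99821855-99866891 (plus strand), IER2 at chr19:13150411-13154911 (plus strand), IER3 at chr6:30743199-30744548 (minus strand) and IER5 at chr1:181088700-181092900 (plus strand). All 6 are protein-coding genes, and the values below are the counts of the row that carries the plain gene symbol, which for IER3 holds only a part of the reads. The RefSeq promoter table (GRCh38.p14) held entries for NR4A1, NR4A3, IER2 and IER5. NR4A3 and IER2 are shown because both rose at 1 h in all 4 combinations of ligand and line and because their windows held the core of the cAMP response element (CRE), TGACG, at which CREB-type factors are known to bind. Each line gives the 250 bases before the RefSeq start site on the plus strand, and capitals mark the CRE core on either strand (CGTCA is the core on the minus strand):
NR4A3, chr9:99821635-99821884: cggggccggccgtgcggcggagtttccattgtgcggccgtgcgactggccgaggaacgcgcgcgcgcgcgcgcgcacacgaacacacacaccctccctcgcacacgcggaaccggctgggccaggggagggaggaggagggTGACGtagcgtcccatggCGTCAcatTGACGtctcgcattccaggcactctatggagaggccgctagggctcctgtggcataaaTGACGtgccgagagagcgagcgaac
IER2, chr19:13150161-13150410: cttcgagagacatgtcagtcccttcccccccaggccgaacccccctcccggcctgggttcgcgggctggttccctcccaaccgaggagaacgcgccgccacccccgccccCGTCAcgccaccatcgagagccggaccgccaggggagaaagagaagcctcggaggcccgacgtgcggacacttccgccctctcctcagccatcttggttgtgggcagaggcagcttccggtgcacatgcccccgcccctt

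The NR4A3 window held 4 CRE cores, beginning at positions -109, -91, -83 and -25 relative to the start site, whereas 21.2% of the 35116 promoters of the table held at least 1 and 0.236% held 4 or more. In IER2 a single core began at position -140, beside 3 SP1 motifs (GGGCGG, in 42.6% of promoters), and the second of the 2 NR4A1 entries held 1 SP1 motif. The other motifs searched on both strands were found in none of these windows: the full CRE (TGACGTCA, 1.65% of promoters, which contains the core), AP-1 (TGANTCA, 6.57%), EGR (GCGNGGGCG, 8.41%), the NR4A site NBRE (AAAGGTCA, 1.05%), the CArG box of SRF (1.16%) and the NF-kB site (5.21%). IER5 and the first NR4A1 entry held none of the motifs. A match or its absence describes only these letters in these windows.

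Libraries held between 16794594 and 33387936 counts, with a median of 24224094. Levels are given as CPM (a gene's counts scaled to a common library total, with TMM factors), and 3 counts, taken as the detection limit, correspond to between 0.0929 and 0.180 CPM; these limits cover counting error only. The luminal markers of the lines were present in every library, with ERBB2 between 5994 and 10546 CPM, while GATA3 ranged from 10.6 to 546 CPM. The summed level of 4 leukocyte markers was at most 0.485 CPM, and 3 basal markers summed to between 1.19 and 10.3 CPM. Of the basal markers TP63 reached 9.86 CPM, KRT5 2.55 CPM and KRT14 0.280 CPM. Of the fibroblast markers COL1A1 alone was well detected, at between 75.0 and 295 CPM. Among the endothelial markers VWF reached 23.0 CPM, CDH5 7.61 CPM and PECAM1 0.218 CPM. These are bulk measurements, in which fewer cells of a kind and less RNA per cell cannot be told apart.

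**Figure D1:**
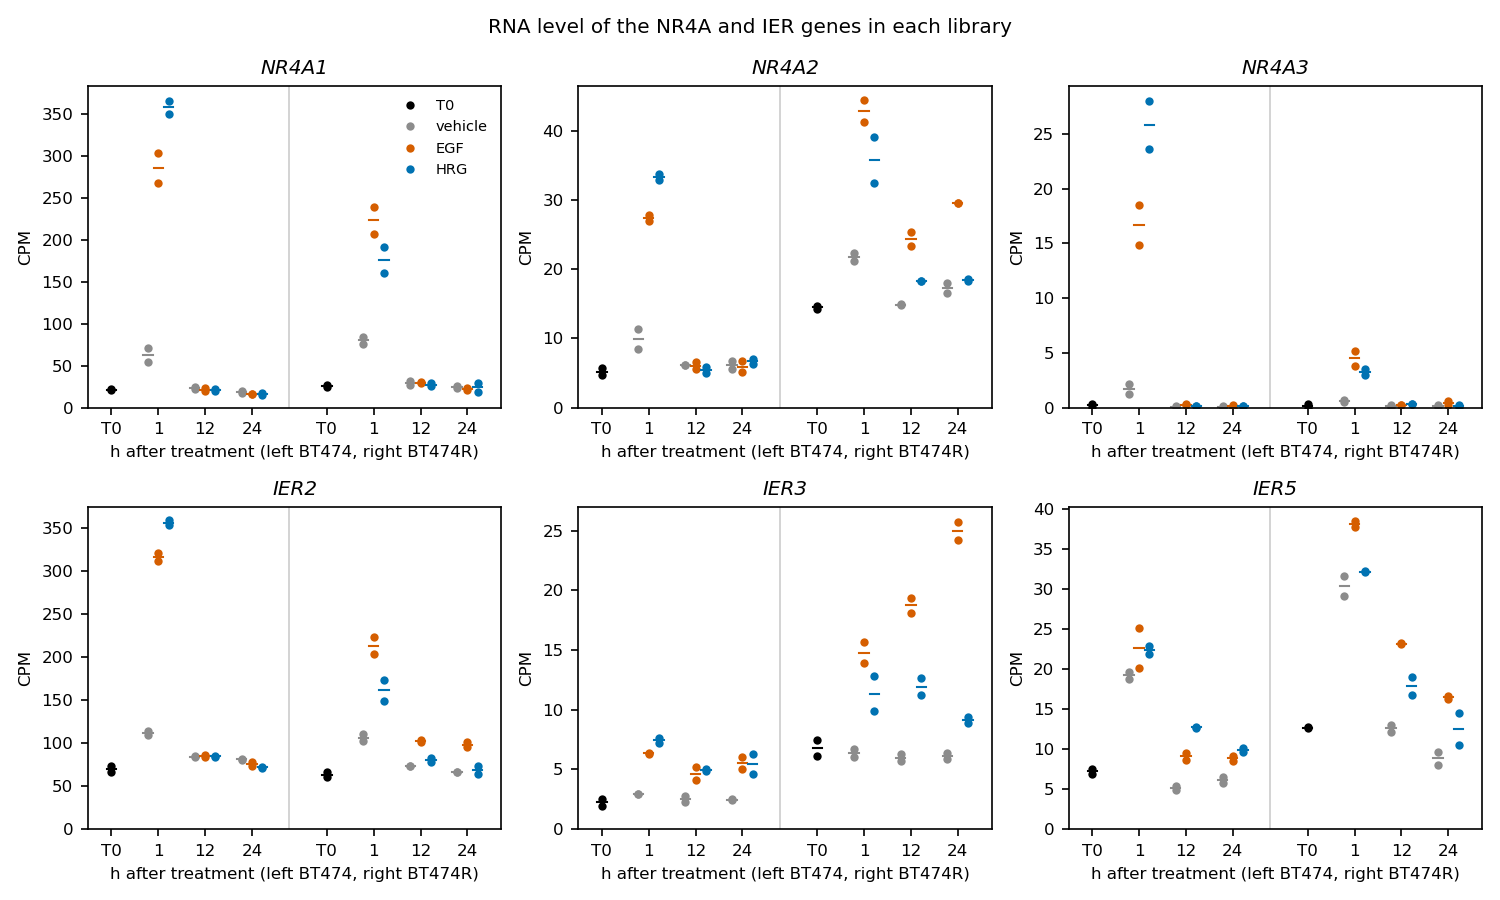
RNA level (CPM, linear axes from 0, a separate scale for each gene) of the 6 genes in each of the 40 libraries, by time after treatment. Points are libraries and short bars the mean of 2; NR4A1, NR4A2, NR4A3 and IER2 peak at 1 h with a ligand, IER3 stays above vehicle to 24 h, and IER5 is high at 1 h in vehicle as well.

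At 1 h both ligands raised NR4A1, NR4A2, NR4A3, IER2 and IER3 in both lines, and IER5 did not pass the test in any of the 4 comparisons. A gene was called when the adjusted p of edgeR's quasi-likelihood F test was under 0.05. With EGF 5 of the 6 members were called in BT474 and 5 of 6 in BT474R, where 2.19% and 0.457% of all tested genes were called; with HRG the counts were again 5 of 6 and 5 of 6, against 2.77% and 0.169%. All of these members were higher with ligand. The median log2 fold change over the 6 members was 1.47 for EGF in BT474, against a median of 0.00122 over all genes tested.

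NR4A1, also called NUR77 and an early target of growth factor signaling, stood at 70.8 and 54.8 CPM in the BT474 vehicle libraries at 1 h, at 267 and 303 CPM with EGF and at 365 and 349 CPM with HRG. In BT474R it was at 76.1 and 84.1 CPM with vehicle, 207 and 239 CPM with EGF and 191 and 161 CPM with HRG. In both lines every ligand library lay far above both vehicle libraries, and HRG lay above EGF in BT474 but below it in BT474R. The log2 fold changes against vehicle were 2.16 ± 0.0722 (SE; adjusted p = 4.57e-24) with EGF and 2.50 ± 0.0727 with HRG in BT474, and 1.48 ± 0.118 and 1.14 ± 0.118 in BT474R.

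NR4A2, a receptor best known from dopaminergic neurons, was at 11.3 and 8.45 CPM with vehicle in BT474, at 26.9 and 27.8 CPM with EGF and at 33.8 and 32.9 CPM with HRG. BT474R began from a higher level, with 21.1 and 22.3 CPM in vehicle, 41.3 and 44.6 CPM with EGF and 39.2 and 32.6 CPM with HRG. Ligand and vehicle libraries did not overlap in either line. With 2 libraries a group such separation is weak evidence by itself, here and for the other members. Its share over all genes is not given here. The log2 fold changes were 1.46 ± 0.107 and 1.75 ± 0.107 in BT474 and 0.98 ± 0.0824 and 0.73 ± 0.0826 in BT474R, with EGF and HRG in that order.

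NR4A3, the member with the fewest counts, had 47 and 30 counts in the BT474 vehicle libraries at 1 h (2.15 and 1.26 CPM). EGF brought it to 14.9 and 18.5 CPM and HRG to 28.0 and 23.7 CPM, the steepest change among the members. In BT474R vehicle was at 0.677 and 0.527 CPM (16 and 17 counts), EGF at 3.81 and 5.18 CPM and HRG at 3.49 and 2.99 CPM. The log2 fold changes were 3.28 ± 0.203 and 3.92 ± 0.197 in BT474 and 2.91 ± 0.360 and 2.45 ± 0.369 in BT474R, all called; in HRG-BT474R the call was lost without vehicle replicate 2 (2.27, adjusted p = 0.133).

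IER2 was at 114 and 109.6 CPM with vehicle in BT474, at 311 and 320.3 CPM with EGF and at 358 and 353 CPM with HRG. In BT474R the levels were 102 and 109.8 CPM with vehicle, 203 and 223 CPM with EGF and 174 and 149 CPM with HRG. The vehicle levels of the lines were alike and the ligand levels were not. Its log2 fold changes were 1.48 ± 0.0434 and 1.66 ± 0.0437 in BT474 and 1.01 ± 0.0701 and 0.61 ± 0.0700 in BT474R.

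IER3 rose to a similar degree with EGF in both lines. In BT474 it was at 2.98 and 2.90 CPM with vehicle, 6.31 and 6.39 CPM with EGF and 7.64 and 7.22 CPM with HRG, and in BT474R at 6.68 and 6.04, 13.9 and 15.7, and 12.8 and 9.92 CPM. No ligand library overlapped with vehicle. The log2 fold changes were 1.09 ± 0.164 and 1.33 ± 0.166 in BT474 and 1.22 ± 0.125 and 0.85 ± 0.127 in BT474R. In HRG-BT474R the call was lost without vehicle replicate 2 (0.78, adjusted p = 0.1003) or HRG replicate 1 (0.65, adjusted p = 0.0813).

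IER5 differed from the other members at 1 h. It was at 18.7 and 19.7 CPM with vehicle in BT474, 25.2 and 20.1 CPM with EGF and 21.9 and 23.0 CPM with HRG, and at 29.2 and 31.7, 38.6 and 37.8, and 32.1 and 32.3 CPM in BT474R. Ligand libraries lay above vehicle libraries by small margins. The log2 differences were 0.21 ± 0.0885 (adjusted p = 0.330), 0.21 ± 0.0915 (0.320), 0.32 ± 0.0967 (0.319) and 0.08 ± 0.0970 (no call), none past the threshold, and that of EGF in BT474 was called without EGF replicate 2 (0.36, adjusted p = 0.0447). The fit of only the groups compared called EGF in BT474R (0.32, adjusted p = 0.00672).

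**Figure D2:**
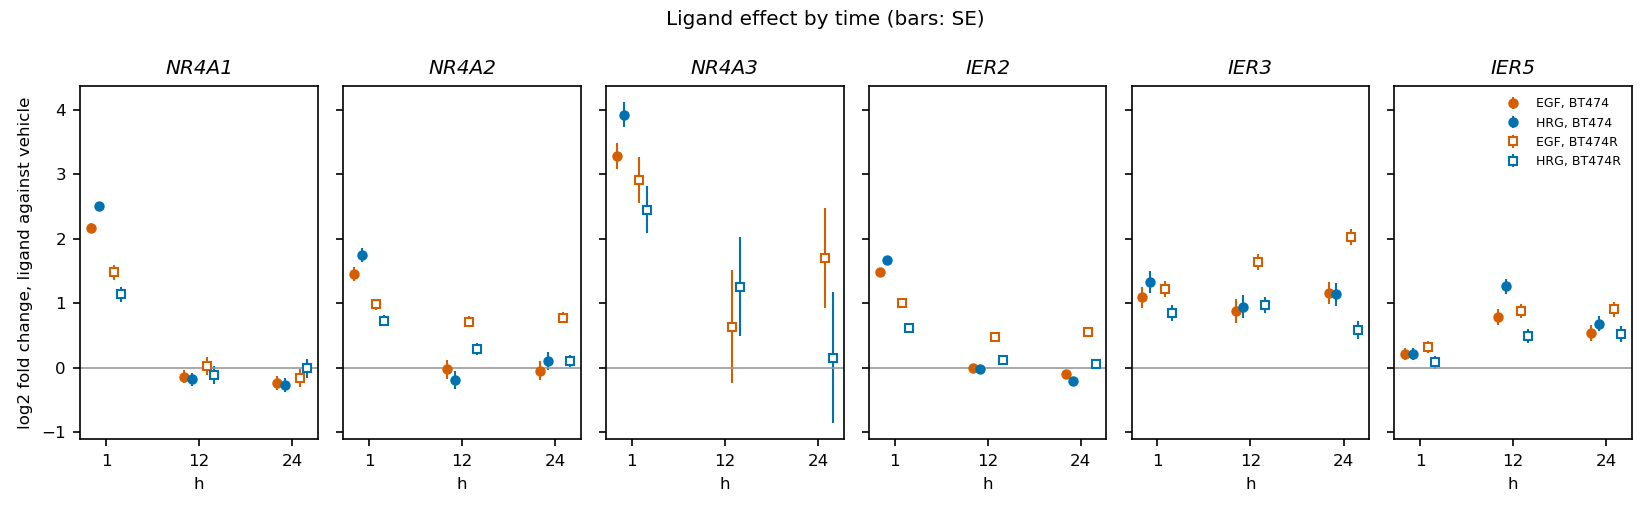
Log2 fold change of each ligand against the vehicle of the same time point (vertical axis; bars are the SE of the fit) by hours after treatment, in BT474 (filled circles) and BT474R (open squares). NR4A1 falls back to around 0 by 12 h in both lines, NR4A2 and IER2 stay above 0 in EGF-BT474R, and IER3 and IER5 lie above 0 at 12 h and 24 h in all 4 combinations; NR4A3 is not drawn at 12 h and 24 h in BT474, where vehicle is at the detection limit.

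Several members were also higher in vehicle at 1 h than before treatment. Against T0, 5 of 6 members were called higher in BT474 vehicle at 1 h (6.62% of tested genes called) and 4 of 6 in BT474R (2.24%). IER5 went from 6.88 and 7.53 CPM at T0 to the 18.7 and 19.7 CPM of vehicle in BT474, and from 12.7 and 12.6 to 29.2 and 31.7 CPM in BT474R. These are log2 fold changes of 1.43 ± 0.108 and 1.27 ± 0.111, several times the differences that either ligand made on top of vehicle.

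NR4A1 was at 21.8 and 21.2 CPM at T0 in BT474 and at 24.8 and 26.8 CPM in BT474R, and vehicle at 1 h stood 1.55 ± 0.0900 and 1.63 ± 0.135 above T0 on the log2 scale. IER2 rose by 0.69 ± 0.0473 and 0.75 ± 0.0741 and NR4A2 by 0.92 ± 0.141 and 0.59 ± 0.0932. NR4A3 had 9 and 1 counts at T0 in BT474 and 5 and 0 counts in BT474R, so that 1 library of each pair was under the detection limit and the size of its change is poorly defined; the change was called in BT474 (2.95 ± 0.50) but not in BT474R (2.12 ± 0.749, adjusted p = 0.181), where it was with no filter on low counts (2.12, adjusted p = 0.0120) and in the fit of only the groups compared (2.12, adjusted p = 0.0155). IER3 was the member that vehicle did not move past the threshold in either line (0.42 ± 0.208 and -0.08 ± 0.144), although the sum of its 6 rows, described with those rows, was called in BT474. The T0 cells did not receive the fresh medium, so that its effect and that of 1 h more of culture cannot be told apart.

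The rise in vehicle had largely gone by 12 h. At 12 h in BT474 (6.41% called) 2 of 6 members differed from T0: IER2 was higher by 0.27 ± 0.0476 and IER5 lower, at 5.45 and 4.91 CPM (-0.47 ± 0.131, adjusted p = 0.0213). The IER5 call was lost when any 1 of the 4 libraries was left out (-0.55 to -0.39, adjusted p from 0.0596 to 0.218). At 24 h in BT474 (11.4% called) only IER2 was called (0.22 ± 0.0483), and not without T0 replicate 1 (0.16, adjusted p = 0.0964). In BT474R no member was called by edgeR at 12 h (1.12% of genes called; 1 member at an unadjusted p under 0.05 and 0 by DESeq2). IER2 was called there with no filter on low counts (0.23, adjusted p = 0.0407) and in the fit of only the groups compared (0.21, adjusted p = 0.00592). At 24 h (13.7%) IER5 was lower than at T0, at 8.07 and 9.59 CPM (-0.52 ± 0.127, adjusted p = 0.00816); this was not called without either T0 library or without vehicle replicate 1 (-0.51 to -0.39, adjusted p from 0.0540 to 0.124).

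After 1 h the members parted. NR4A1 was back among the vehicle values by 12 h: in BT474 EGF libraries were at 22.8 and 19.5 CPM and HRG libraries at 21.8 and 20.04 CPM, beside 22.1 and 24.3 CPM with vehicle. In BT474R they were at 30.5 and 29.0 CPM and at 26.0 and 28.7 CPM, beside 26.4 and 31.8 CPM. At 24 h NR4A1 was between 14.8 and 19.7 CPM in all 6 BT474 libraries and between 19.0 and 29.3 CPM in all 6 of BT474R. None of these 8 comparisons was called, and NR4A1 in BT474 leaned slightly below vehicle at 24 h (-0.23 ± 0.109 with EGF, adjusted p = 0.159, and -0.27 ± 0.108 with HRG, adjusted p = 0.0693). Both of the latter were called when no filter on low counts was used (-0.23 and -0.26), and HRG also without HRG replicate 2 (-0.37, adjusted p = 0.0338).

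The fall itself was tested as the ligand effect at 12 h less that at 1 h. For EGF in BT474, where 7.73% of genes were called, NR4A1 changed by -2.31 ± 0.124, IER2 by -1.48 ± 0.0638 and NR4A2 by -1.48 ± 0.182 on the log2 scale. For HRG in BT474 (14.2%) the changes were -2.68 ± 0.122, -1.69 ± 0.0635 and -1.94 ± 0.181. In BT474R NR4A1 and IER2 were called for EGF (4.43%; -1.45 ± 0.181 and -0.52 ± 0.101) and for HRG (0.992%; -1.25 ± 0.180 and -0.49 ± 0.101). The last of these, IER2 with HRG, was lost in 6 of the 8 fits without 1 library (-0.51 to -0.35, adjusted p from 0.0576 to 0.146), that is without vehicle replicate 1 or HRG replicate 1 at 1 h or any of the 4 libraries at 12 h.

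IER5 moved the other way: its ligand effect grew between 1 h and 12 h by 0.57 ± 0.155 (EGF) and 1.05 ± 0.149 (HRG) in BT474 and by 0.55 ± 0.146 (EGF) in BT474R. The EGF change in BT474 lost its call without replicate 2 of any of the 4 groups (0.43 to 0.54, adjusted p from 0.0653 to 0.0981), and that in BT474R in 7 of 8 such fits, all but the one without vehicle replicate 1 at 1 h (0.50 to 0.63, adjusted p from 0.0522 to 0.134). From 12 h to 24 h edgeR called no member in any of the 4 ligand effects. The shares of genes called were 0.517% and 2.50% for EGF and HRG in BT474 and 0.185% and 0.0288% in BT474R; at an unadjusted p under 0.05 the members numbered 0, 2, 1 and 0, and DESeq2 called 0 in each.

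NR4A2 and IER2 were no longer called above vehicle in BT474 at 12 h and 24 h, but stayed above it in EGF-BT474R. In BT474 NR4A2 was between 5.01 and 7.04 CPM in all 12 libraries of 12 h and 24 h. In BT474R vehicle was at 15.0 and 14.8 CPM at 12 h and 16.6 and 18.0 CPM at 24 h, and EGF at 25.5 and 23.4 and at 29.7 and 29.6 CPM. The EGF libraries lay above all others of their time point, at log2 fold changes of 0.72 ± 0.0897 and 0.77 ± 0.0877. With HRG NR4A2 was at 18.4 and 18.4 CPM at 12 h (0.29 ± 0.0908, adjusted p = 0.0846) and at 18.3 and 18.6 CPM at 24 h (0.11 ± 0.0923); the 12 h difference passed the threshold with the filterByExpr filter (0.30, adjusted p = 0.0487) and with no filter (0.31, adjusted p = 0.0425).

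IER2 in EGF-BT474R was at 103 and 102 CPM at 12 h and at 95.7 and 101 CPM at 24 h, beside 73.2 and 73.3 CPM and 66.6 and 66.6 CPM with vehicle, log2 fold changes of 0.48 ± 0.0726 and 0.56 ± 0.0733. In EGF-BT474 its differences were -0.01 ± 0.0470 at 12 h and -0.11 ± 0.0476 at 24 h, and neither was called. In HRG-BT474 it was lower than vehicle at 24 h, at 70.8 and 72.4 CPM beside 80.1 and 81.7 CPM (-0.20 ± 0.0475, adjusted p = 0.00136).

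NR4A3 was near or at the detection limit after 1 h. In BT474 vehicle it had 3 and 0 counts at 12 h and 0 and 3 counts at 24 h, so that no fold change is given against it; EGF libraries had 7 and 4 and then 0 and 5 counts, and HRG libraries 4 and 5 and then 3 and 4 counts. In BT474R the 12 libraries of 12 h and 24 h had between 1 and 14 counts, and none of the 4 comparisons with vehicle was called. The highest were 14 and 6 counts with EGF at 24 h, beside 5 and 1 with vehicle (log2 1.70 ± 0.777, adjusted p = 0.151), a difference called with no filter on low counts (1.69, adjusted p = 0.0398).

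IER3 and IER5 were higher with both ligands in both lines at 12 h and at 24 h. The counts of called members were 2 of 6 for EGF in BT474 at 12 h and 2 of 6 at 24 h (16.0% and 16.4% of genes called). For HRG in BT474 they were 2 and 3 of 6 (25.8% and 24.1%). The share of members called with HRG at 12 h is close to the background. In BT474R the counts were 4 of 6 and 4 of 6 for EGF (12.0% and 17.3%). For HRG in BT474R they were 2 of 6 and 2 of 6 (4.12% and 2.78%). In BT474 and in HRG-BT474R these calls were IER3 and IER5, and at 24 h in HRG-BT474 also the lower IER2; in EGF-BT474R NR4A2 and IER2 joined them.

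IER3 in EGF-BT474R had its highest values at 24 h. It was at 13.9 and 15.7 CPM at 1 h, 19.4 and 18.1 CPM at 12 h and 24.3 and 25.8 CPM at 24 h, while vehicle stayed between 5.72 and 6.68 CPM. The fold changes against vehicle were 1.64 ± 0.125 at 12 h and 2.03 ± 0.124 at 24 h on the log2 scale, although the step from 12 h to 24 h alone was not called (0.39 ± 0.180, adjusted p = 0.594). HRG-BT474R was at 11.2 and 12.6 CPM at 12 h and 9.35 and 8.86 CPM at 24 h (0.97 ± 0.129 and 0.59 ± 0.138). The 24 h call was lost without vehicle replicate 1 or 2 (0.64 and 0.54, adjusted p = 0.148 and 0.0727) and in the fit of only the groups compared (0.57, adjusted p = 0.828).

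In BT474 vehicle held IER3 at 2.24 and 2.80 CPM at 12 h and 2.40 and 2.54 CPM at 24 h. EGF libraries were at 5.20 and 4.08 and then 6.04 and 5.02 CPM, and HRG libraries at 5.01 and 4.86 and then 6.33 and 4.63 CPM. Every ligand library lay above every vehicle library, with log2 fold changes of 0.88 ± 0.180 and 1.16 ± 0.176 for EGF and 0.95 ± 0.173 and 1.14 ± 0.173 for HRG.

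IER5 in BT474 vehicle was at 5.45 and 4.91 CPM at 12 h and 6.49 and 5.73 CPM at 24 h. HRG brought it to 12.7 and 12.7 CPM at 12 h and 9.70 and 10.2 CPM at 24 h (1.26 ± 0.116 and 0.68 ± 0.120), and EGF to 8.63 and 9.55 and then 8.54 and 9.19 CPM (0.79 ± 0.127 and 0.53 ± 0.124). These levels stood below the 18.7 and 19.7 CPM of vehicle at 1 h. The EGF call at 24 h was lost without vehicle replicate 2 (0.43, adjusted p = 0.0781).

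In BT474R IER5 was at 12.2 and 13.02 CPM with vehicle at 12 h and 8.07 and 9.59 CPM at 24 h. EGF libraries were at 23.2 and 23.1 and then 16.3 and 16.6 CPM (0.88 ± 0.109 and 0.90 ± 0.120), and HRG libraries at 16.7 and 19.0 and then 10.5 and 14.6 CPM (0.49 ± 0.111 and 0.53 ± 0.125). All lay above vehicle. The 2 HRG libraries of 24 h differed more from each other over all genes than those of any other group (median chi-square 2.56, where counting noise gives 0.455), and the number of genes called for HRG at 24 h changed with single libraries: 675 genes were called, 2307 without HRG replicate 1 and 107 without vehicle replicate 1. The HRG calls rested on single libraries: the one at 12 h was lost without vehicle replicate 1 or HRG replicate 2 (0.46 and 0.42, adjusted p = 0.108 and 0.159), and the one at 24 h without vehicle replicate 1 or HRG replicate 2 (0.39 and 0.27, adjusted p = 0.412 and 0.324). Both were also lost in the fit of only the groups compared (0.50 at each time, adjusted p = 0.0633 and 0.828).

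The ligands were compared with each other at each time point. Their concentrations differ, so the values below set EGF at 50 ng/mL beside HRG at 10 ng/mL. At 1 h in BT474, where 0.139% of genes differed, 3 of 6 members were higher with HRG: NR4A1 (0.34 ± 0.0644), NR4A3 (0.64 ± 0.133) and IER2 (0.18 ± 0.0408). These calls did not hold widely. NR4A1 and NR4A3 were lost without either HRG library or EGF replicate 1 (0.25 to 0.37 and 0.50 to 0.76, adjusted p from 0.0505 to 1), IER2 without any 1 of the 4 (0.16 to 0.21, adjusted p from 0.107 to 0.947), and 0 of the 3 remained in the fit of only the groups compared or in the fit of both lines. DESeq2 called 1, IER2, and the filterByExpr filter ended the NR4A3 call (0.65, adjusted p = 0.0655).

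At 1 h in BT474R (0.0494% of genes) IER2 was lower with HRG than with EGF (-0.39 ± 0.0689, adjusted p = 0.0234), a call lost without HRG replicate 2 or either EGF library (-0.45 to -0.29, adjusted p from 0.0795 to 1) and in the fit of only the groups compared (-0.39, adjusted p = 0.320). Every other member lay lower with HRG too, by log2 differences between -0.46 and -0.24, none called.

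At 12 h IER5 was higher with HRG in BT474 (2.17% of genes; 0.47 ± 0.11, adjusted p = 0.0108), and not without either HRG library or EGF replicate 1 (0.39 to 0.48, adjusted p from 0.0563 to 0.293). In BT474R (1.42%) 3 of 6 members were lower with HRG: NR4A2 (-0.43 ± 0.0873), IER2 (-0.36 ± 0.0720) and IER3 (-0.67 ± 0.115). Leaving out HRG replicate 1 or EGF replicate 1 ended all 3 calls; leaving out HRG replicate 2 ended those of NR4A2 and IER2 and leaving out EGF replicate 2 that of IER2. The log2 differences then were between -0.43 and -0.35 for NR4A2, between -0.39 and -0.32 for IER2 and between -0.61 and -0.59 for IER3. The fit of only the groups compared ended the NR4A2 call (-0.42, adjusted p = 0.0706).

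The 24 h differences in BT474R were the largest between the ligands (5.18% of genes called). IER3 was at 9.35 and 8.86 CPM with HRG beside 24.3 and 25.8 CPM with EGF (-1.44 ± 0.119, adjusted p = 3.72e-08), NR4A2 at -0.66 ± 0.0880 and IER2 at -0.50 ± 0.0736. None of the 3 was lost on leaving out 1 library, but all were in the fit of only the groups compared (-1.45, -0.68 and -0.51, adjusted p = 0.0925, 0.156 and 0.272). In BT474 at 24 h (0.768%) edgeR called no member, 0 at an unadjusted p under 0.05 and 0 by DESeq2; the 95% interval of the IER3 difference was -0.32 to 0.28.

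Before any treatment 3 of the 6 members were higher in BT474R than in BT474, where 46.9% of all tested genes differed. At T0 NR4A2 was at 14.3 and 14.7 CPM in BT474R and 5.72 and 4.69 CPM in BT474 (1.46 ± 0.133), IER3 at 7.44 and 6.08 beside 1.97 and 2.49 CPM (1.60 ± 0.184) and IER5 at 12.7 and 12.6 beside 6.88 and 7.53 CPM (0.82 ± 0.128). The share is close to the background. NR4A1 (0.27 ± 0.144, adjusted p = 0.132) and IER2 (-0.14 ± 0.0660, adjusted p = 0.0776) were not called. Both were with no filter on low counts (0.24 and -0.17) and in the fit of only the T0 groups (0.23 and -0.18), and IER2 was also lower by DESeq2 (-0.18), with the DESeq2 size factors (-0.18), with filterByExpr (-0.17), with the IER3 rows summed (-0.18) and without BT474 replicate 1 or BT474R replicate 2 (-0.25 in each).

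With HRG the 1 h induction of NR4A1, NR4A2 and IER2 was smaller in BT474R, and with EGF that of NR4A1 and IER2. The difference between the lines in the ligand effect was tested directly, as BT474R minus BT474. With HRG at 1 h (0.544% of genes called) it was -1.38 ± 0.153 for NR4A1, -1.04 ± 0.144 for NR4A2 and -1.07 ± 0.0839 for IER2, and these 3 of 6 calls held in every fit run. NR4A3 differed by -1.48 ± 0.524 (adjusted p = 0.458), and was called with no filter on low counts (-1.49) and in the fit of only the groups compared (-1.47). With EGF (0.138%) the differences were smaller: IER2 at -0.50 ± 0.0835 and NR4A1 at -0.71 ± 0.152 were called, 2 of 6. NR4A1 was lost by DESeq2 (-0.68, adjusted p = 0.378), with DESeq2 size factors (-0.68, adjusted p = 0.0661), with filterByExpr (-0.69, adjusted p = 0.0774), and without any of 5 libraries (-0.77 to -0.52, adjusted p from 0.0504 to 0.684), which were BT474 vehicle replicate 2, BT474 EGF replicate 2, both BT474R vehicle libraries and BT474R EGF replicate 1. NR4A3 with EGF differed by -0.39 ± 0.512 (adjusted p = 0.951). NR4A2 with EGF (-0.50 ± 0.143, adjusted p = 0.310) was called in the fit of only the groups compared (-0.49, adjusted p = 0.0244).

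**Figure D3:**
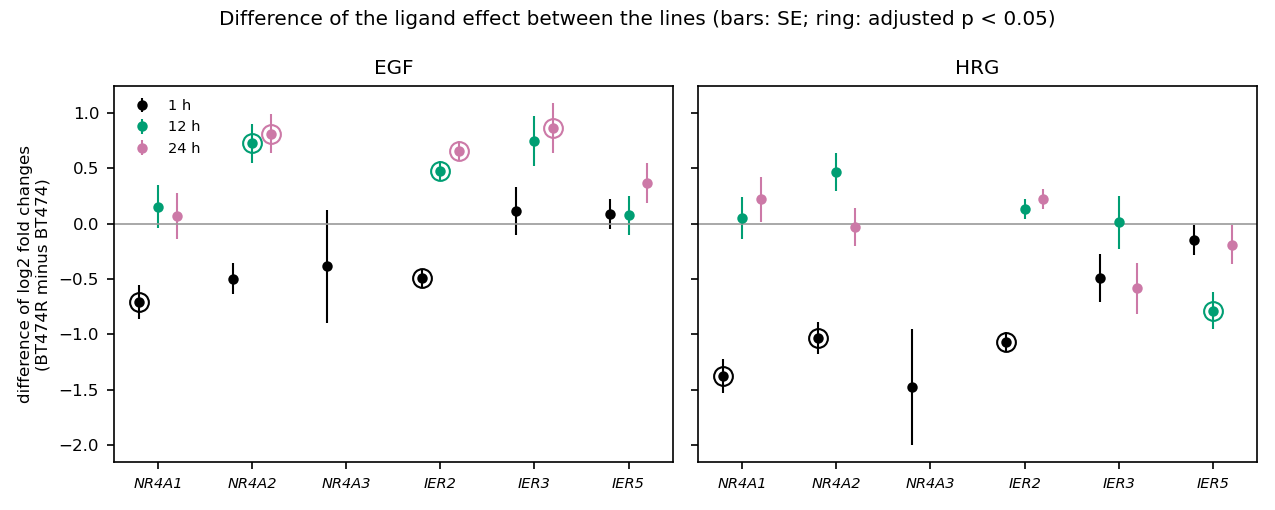
Difference between the lines in the log2 fold change of ligand against vehicle (BT474R minus BT474; bars are the SE of the fit) for EGF (left) and HRG (right), coloured by hours after treatment, with a ring around differences of adjusted p under 0.05. NR4A1, NR4A2 and IER2 lie below 0 at 1 h, most with HRG, and NR4A2, IER2 and IER3 above 0 at 24 h with EGF; NR4A3 is drawn at 1 h only.

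At 12 h and 24 h the EGF differences that were called lay above 0, and IER2 alone had been called below 0 at 1 h as well. At 12 h (1.96% of genes) the EGF effect was greater in BT474R for NR4A2 (0.73 ± 0.176) and IER2 (0.47 ± 0.0883), and at 24 h (4.01%) for NR4A2 (0.81 ± 0.175), IER2 (0.66 ± 0.0893) and IER3 (0.86 ± 0.226). IER2 kept its calls at both times in every fit. NR4A2 at 12 h lost its call without either BT474 vehicle library, BT474 EGF replicate 2, BT474R vehicle replicate 2 or BT474R EGF replicate 1 (0.60 to 0.73, adjusted p from 0.0584 to 0.177), and at 24 h without BT474 vehicle replicate 1 (0.68, adjusted p = 0.0581). IER3 at 24 h lost it without either BT474 vehicle library or replicate 2 of BT474 EGF, BT474R vehicle or BT474R EGF (0.75 to 0.88, adjusted p from 0.0524 to 0.156).

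With HRG the late differences were few. IER5 at 12 h (4.07% of genes) was less raised in BT474R (-0.79 ± 0.165, adjusted p = 0.00308), and not called without BT474 vehicle replicate 2 (-0.70, adjusted p = 0.0515). At 24 h (3.33%) edgeR called no member; 2 had an unadjusted p under 0.05 and DESeq2 called 0. These were IER2 (0.22 ± 0.0905), which was called without BT474R HRG replicate 1 (0.32, adjusted p = 0.0256), and IER3 (-0.59 ± 0.228).

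IER3 is the member whose counts are split. The table has 6 rows of that name, the plain one and 5 with a number, and numbered copies are also present for TUBB and FLOT1, which lie near IER3 in the MHC region of chromosome 6, where the assembly holds alternate haplotypes. How reads matching several copies were counted is not given in the sources used here. The plain row held 10.5% of the summed count (8.34% to 13.5% across libraries), so the CPM above are a part of the IER3 reads and their level is not that of the gene. With the 6 rows added, IER3 stood at 22.1 and 20.2 CPM at T0 in BT474 and 61.0 and 63.1 CPM in BT474R, and at 228 and 244 CPM in EGF-BT474R at 24 h beside 63.6 and 61.7 CPM with vehicle.

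**Figure D4:**
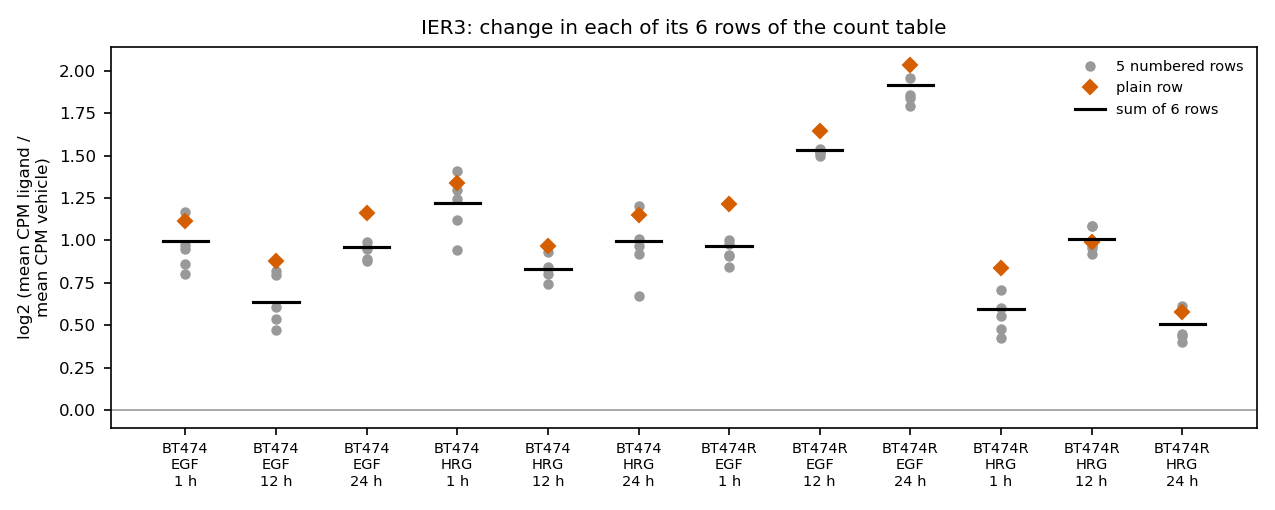
Log2 ratio of the mean CPM with ligand to the mean CPM with vehicle for each of the 6 rows named IER3 (diamond, plain row; grey, 5 numbered rows; black line, their sum) in the 12 combinations of line, ligand and time. All 6 rows are above 0 in each combination, and the highest values are those of EGF-BT474R at 24 h, between 1.79 and 2.04.

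In all 12 comparisons of a ligand with vehicle the 6 rows pointed the same way, upward, and the summed IER3 was called in each. All but 1 of the following calls of the summed IER3 were not given by the plain row alone, the exception being the EGF difference between the lines at 24 h. Vehicle in BT474 was above T0 at 1 h (0.45, adjusted p = 0.000382), 12 h (0.30, adjusted p = 0.0193) and 24 h (0.35, adjusted p = 0.00382). Between the lines the EGF effect was greater in BT474R at 12 h (0.89, adjusted p = 5.05e-07) and 24 h (0.94, adjusted p = 5.29e-08), and the HRG effect smaller at 1 h (-0.63, adjusted p = 0.000261) and 24 h (-0.50, adjusted p = 0.00342). From 1 h to 12 h the summed ligand effects fell in BT474 (-0.35 with EGF and -0.41 with HRG) and grew in BT474R (0.57 and 0.39), all 4 called. At 1 h in BT474R it was lower with HRG than with EGF (-0.36, adjusted p = 0.0104).

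Other immediate early genes moved with the members at 1 h. Of 20 immediate early transcription factors 17 rose with EGF and 17 with HRG in BT474, with median log2 fold changes of 1.95 and 2.17, where the median of all genes was 0.00122 and -0.00719; of the 19 tested in BT474R 14 rose with EGF and 8 with HRG (medians 1.30 and 0.76). The shares of all genes called in these comparisons were 2.19%, 2.77%, 0.457% and 0.169%. The most abundant of them, EGR1, rose by 3.75 ± 0.0602 and 4.04 ± 0.0607 in BT474 and by 3.77 ± 0.135 and 3.03 ± 0.133 in BT474R. JUND and FOSL2, next in abundance, rose in BT474 (0.64 and 0.39 with EGF, 0.68 and 0.49 with HRG) and were not called in BT474R. Of 26 other early response genes 19 and 22 rose in BT474 and 14 and 11 in BT474R; among them MCL1, an anti-apoptotic BCL2 relative, rose by 0.93 ± 0.0352 with EGF and 1.12 ± 0.0354 with HRG in BT474, and by 0.66 ± 0.0586 and 0.41 ± 0.0585 in BT474R.

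At 12 h 6 of the 20 factors were higher and 3 lower with EGF in BT474, and 8 of 19 higher and 1 lower in EGF-BT474R, where 16.0% and 12.0% of all genes were called. EGR1 then stood below vehicle in BT474 (-1.12 with EGF and -1.31 with HRG at 12 h, -1.63 and -2.46 at 24 h), while in EGF-BT474R it was called above vehicle at 24 h (0.69 ± 0.206). At 24 h EGF left 10 of 19 factors higher in BT474R, with a median of 0.69, and HRG 1 of 19 higher and 1 lower, with a median of 0.0101, where 17.3% and 2.78% of all genes were called.

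Fewer calls were made among the regulators that act upstream of the members. Of 18 genes of the CREB, CRTC, SRF, MEF2, NF-kB and HSF1 branches 2 rose with each ligand at 1 h in BT474 (2.19% and 2.77% of all genes called), 1 of them MEF2D, a factor at the NR4A1 promoter in lymphocytes (0.48 ± 0.0580 with EGF and 0.60 ± 0.0587 with HRG), and the other, named after its values were seen, SRF. At 24 h in EGF-BT474R 4 rose and 2 fell (17.3% of all genes called). Of the partner genes, RXRA, a dimer partner of NR4A1 and NR4A2, was lower at 12 h and 24 h in EGF-BT474 (-0.31 and -0.30). There 16.0% and 16.4% of all genes were called. It was also lower in HRG-BT474 (-0.53 and -0.51, with 25.8% and 24.1% of genes called). In EGF-BT474R its changes were -0.31 and -0.36 (12.0% and 17.3%). Among the 6 tested partners 1 rose and 1 fell in EGF-BT474 at 12 h (16.0%). Of the 10 HSF1 target chaperones 5 rose and 1 fell with EGF in BT474 at 24 h (16.4% of all genes called). In BT474R 6 rose and 1 fell (17.3%). HSPA8 was higher by 0.27 ± 0.0432 and 0.35 ± 0.0547 and HSP90AA1 by 0.24 ± 0.0357 and 0.36 ± 0.0737. HSPB1 was lower by -0.16 ± 0.0366 and -0.20 ± 0.0682. These values cover EGF at 24 h only. With HRG at 1 h in BT474R the 3 named chaperones were not called. A link between the chaperones and IER5 was not tested.

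Across the 20 groups the members fell into a close set and 2 that stood apart. The Pearson correlation of group means of log2 CPM, with each line centred on its own mean, was between 0.909 and 0.973 for the pairs among NR4A1, NR4A2, NR4A3 and IER2. IER5 correlated with them at 0.780 to 0.866, and IER3, taken as its plain row alone, at 0.298 to 0.583. These are descriptions over 20 group means. The genes compared were measured in the same libraries and share a few very high 1 h groups.

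Among 13900 genes the profiles most like NR4A1 were those of FOSB (r = 0.988), EDN1 (0.986) and CSRNP1 (0.985). For NR4A2 they were SLC25A25 (0.988), FOS (0.977) and NFKBIZ (0.974), for NR4A3 NFKBIZ (0.978), MYADM (0.978) and JUN (0.973), and for IER2 JUNB (0.983), RASD1 (0.979) and NFKBIZ (0.979). IER5 lay closest to RGS16 (0.970), AEN (0.968) and PLK3 (0.965). The plain row of IER3 had looser neighbours, PDK4 (0.937), GCH1 (0.935) and POLR3D (0.931).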

How the data were processed

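RNA of 40 libraries (20 groups of 2) was measured by poly(A) mRNA sequencing. The deposited values are unnormalized gene counts. To make them the authors trimmed read pairs with Trim Galore 0.6.6, aligned them to GRCh38.p13 with Rsubread and ran featureCounts. Which annotation release was used, whether strand was counted and how multiply matching reads were handled are not given in the sources used here. The antisense rows were nearly empty: NR4A1AS had 0 counts and IER3-AS1 at most 2. This does not settle how strand was counted.

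Counts were analysed in R 4.3.3 with edgeR 4.0.16 (TMM factors between 0.936 and 1.08, quasi-likelihood F test, Benjamini-Hochberg adjustment over all genes tested, threshold 0.05). Each line was fitted with its 20 libraries and the lines were compared in a fit of 40; genes needed at least 1 count in at least 50% of the libraries, which left 25146 genes in BT474, 24287 in BT474R and 24641 in both. There were 39 comparisons of 6 members. The SE is the log2 fold change divided by the root of F. The procedure was tested on simulated data. The simulation covered only EGF at 1 h in BT474 and took its spread from the fitted trend. Groups with uneven replicates were not simulated. Alternatives were DESeq2 1.42.0, its size factors in edgeR, 2 other filters, a replicate block, other sets of libraries, summed IER3 rows and each library left out (fits of 40 libraries then kept the dispersion trend of the full fit). Fits of only the groups compared rest on few libraries.

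All 6 members were named, and of each gene list only genes among the 3 with the highest mean CPM. SRF is the exception, named after its values were seen. The members and the lists were chosen with earlier results of these data known. Likeness was computed among genes of at least 1 CPM with log2 CPM values (prior count 2).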

Additional observations from a re-analysis of the deposited data

Results flagged for a closer look

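The effects listed here differed between time points or between the lines by a direct test (edgeR, adjusted p under 0.05), which is why they are set out; all are log2 values. For EGF in BT474 the effect at 12 h less that at 1 h was -2.31 for NR4A1, -1.48 for NR4A2, -1.48 for IER2 and 0.57 for IER5. For HRG in BT474 it was -2.68, -1.94, -1.69 and 1.05 for the same genes in that order. For EGF in BT474R it was -1.45 for NR4A1, -0.52 for IER2 and 0.55 for IER5. For HRG in BT474R it was -1.25 for NR4A1 and -0.49 for IER2.

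Between the lines, as BT474R minus BT474, the EGF effect at 1 h differed by -0.71 for NR4A1 and -0.50 for IER2. At 12 h it differed by 0.73 for NR4A2 and 0.47 for IER2, and at 24 h by 0.81 for NR4A2, 0.66 for IER2 and 0.86 for IER3. The HRG effect at 1 h differed by -1.38 for NR4A1, -1.04 for NR4A2 and -1.07 for IER2, and at 12 h by -0.79 for IER5. EGF and HRG effects share their vehicle libraries, so the 2 sets of differences are not independent.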

How the results depend on the processing

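Of 92 called member results among 234, 64 kept their call in every fit, 25 lost it without some library and 12 under another alternative. Over the other alternatives 1755 of 1819 member values kept their side of the threshold and 0 reversed; with 1 library left out 1188 of 1272 did and 0 reversed. Low counts limit NR4A3 after 1 h, and 2 libraries a group limit every call.

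Outside the fits that leave out a library, 54 of 305 counts of called members changed, 34 of them by no more than 1.5 times. The other 20 follow, with the reported count second. Fitting only the groups compared gave 0 in place of 3 (HRG against EGF, 1 h, BT474), 1 in place of 2 and 0 in place of 2 (HRG at 12 h and 24 h, BT474R), 0 in place of 1 and 0 in place of 3 (HRG against EGF at 1 h and 24 h, BT474R), 1 in place of 0 (vehicle at 12 h, BT474R), 5 in place of 3 (lines at T0) and 2 in place of 1 (HRG between lines, 12 h). With no filter on low counts they were 1 in place of 0 (HRG, 24 h less 12 h, BT474), 2 in place of 1 (HRG against EGF, 1 h, BT474R), 1 in place of 0 (vehicle at 12 h, BT474R) and 5 in place of 3 (lines at T0). Summing the IER3 rows gave 2 in place of 1 (vehicle at 24 h, BT474), 2 in place of 1 (HRG against EGF, 1 h, BT474R) and 1 in place of 0 (HRG between lines, 24 h). One fit of both lines gave 0 and DESeq2 1 in place of 3 (HRG against EGF, 1 h, BT474). For EGF between lines at 1 h, DESeq2, its size factors and filterByExpr each gave 1 in place of 2. The same rule, with any move to or from 0, picks the counts listed next for fits without 1 library. Smaller moves in those fits are left out.

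Leaving out 1 library in turn moved these counts: in BT474 EGF at 24 h (2; 1 to 2), HRG against EGF at 1 h (3; 0 to 2) and 12 h (1; 0 to 1), vehicle at 12 h (2; 1 to 1) and 24 h (1; 0 to 1); in BT474R HRG at 1 h (5; 3 to 5), 12 h (2; 1 to 2) and 24 h (2; 0 to 2), HRG against EGF at 1 h (1; 0 to 1) and 12 h (3; 0 to 2), HRG 12 h less 1 h (2; 1 to 3), vehicle at 24 h (1; 0 to 1); between the lines EGF at 1 h (2; 1 to 2), 12 h (2; 1 to 2) and 24 h (3; 1 to 3), HRG at 12 h (1; 0 to 1) and 24 h (0; 0 to 1).

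Counts over all genes moved by over 1.5 times in 28 of 39 comparisons, and in 35 when 1 library was left out. Among them HRG against EGF at 1 h in BT474 went from 35 to between 0 and 96, HRG at 24 h in BT474R from 675 to between 0 and 1147, HRG against EGF at 24 h in BT474R from 1258 to between 0 and 1710, and HRG between lines at 24 h from 821 to between 85 and 977. With 1 library left out the first lay between 15 (without BT474 EGF replicate 1) and 34, and the others in turn between 107 (without BT474R vehicle replicate 1) and 2307 (without BT474R HRG replicate 1), between 652 (without BT474R EGF replicate 2) and 2029 (without BT474R HRG replicate 2), and between 477 (without BT474 HRG replicate 1) and 1711 (without BT474R HRG replicate 1). The 0 counts are those of the fit of only the groups compared. The cause was not tested.

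Replicate numbers showed no pairing common to all groups. The correlation of replicate differences between groups had a median of 0.0223 in BT474 and -0.0164 in BT474R. It ranged from -0.0733 to 0.302 and from -0.234 to 0.423, and was over 0.1 in 8 and 13 of 45 pairs of groups. Whether some groups were paired was not tested. The replicate block ended no member call and added IER5 in HRG against EGF in BT474R at 12 h (-0.39, adjusted p = 0.0357) and 24 h (-0.38, adjusted p = 0.0362).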
